A study of Mus musculus with 9 samples.

Results

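The nuclear-encoded subunits of the respiratory chain and ATP synthase were followed in bulk RNA sequencing of whole retina from mice with oxygen-induced retinopathy (OIR). They were chosen by symbol, as protein-coding rows named Ndufa, Ndufb, Ndufc, Ndufs or Ndufv with a number, Ndufab1, Sdha to Sdhd, or any name beginning with Uqcr, Cox4 to Cox8 or Atp5. Ndufa4, Ndufa4l2, Cox4i1 and Cox4i2 were left out of the set. The choice gave 82 of the 54532 rows of the count table, with 36 for complex I, 4 for complex II, 8 for complex III, 16 for complex IV and 17 for complex V. The remaining row, Atp5s, carries an ATP synthase name but encodes a coupling factor that is not counted among the subunits of the enzyme.

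In all, 9 libraries were compared, all from wild-type C57BL/6 mice at postnatal day 17, with 3 mice in each group. Control mice were raised in room air and are labelled as having received DMSO. OIR mice went through the hyperoxia of the OIR model, were returned to room air at postnatal day 12 and received DMSO, the vehicle, as a single intraocular injection on that day. Treated OIR mice received 32-134D, an inhibitor of hypoxia-inducible factors (HIFs), in the same way, at a dose labelled as 70 ng. The deposited text elsewhere gives the dose as a concentration, and the volume was not stated. OIR and treated OIR mice therefore differed from control mice in the whole of the OIR procedure, and in treated OIR mice the drug was added to it. P-values set a difference between groups against the spread between these mice, which the main fit shares over the 3 groups.

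The respiratory chain passes electrons from NADH (complex I) and succinate (complex II) through complex III to oxygen at complex IV. Complexes I, III and IV pump protons across the mitochondrial inner membrane, and ATP synthase (complex V) uses the gradient to make ATP. Most subunits are encoded in the nucleus, while a small number of core subunits of complexes I, III, IV and V are encoded in mitochondrial DNA. Photoreceptors, the most numerous cells of the mouse retina, pack their inner segments with mitochondria. HIFs are known to act on the chain through single genes, among them the switch of Cox4i1 to Cox4i2 and the induction of Ndufa4l2.

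The libraries held between 16028731 and 27213184 counts assigned to genes. The tissue label was borne out by the markers, since Gnat1, the rod transducin, and Sag, the rod arrestin, were among the most abundant genes by mean CPM, the counts of a gene scaled to a fixed library size. Treated OIR mouse 2 stood apart, with 15.8% of its counts in crystallin genes of the lens against at most 0.211% in the other mice. Values below are CPM scaled by the trimmed mean of M-values (TMM), which lowers the effect of such a dominant class, and the main counts and the marker lists of the treated group are given with and without it. In bulk tissue, fewer cells of a type and less RNA per cell cannot be told apart.

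Of the 82 members, 79 had enough counts to be tested. Cox7b2, a testis form, had 6 and 2 counts in control mice 6 and 7 and 0 in the other mice. Cox8c had 1 count, in treated OIR mouse 5. A second row named Atp5o had 0 counts in every mouse and overlapped the gene body of other annotated genes. Per kilobase of transcript, the mean level over the 9 mice ran from 772 CPM per kb for Atp5b, the catalytic beta subunit of the ATP synthase head, to 1.62 for Cox6a2, the heart and muscle form of a complex IV subunit. Cox8a, a small complex IV subunit, stood at 530, and Uqcrc1, a core protein of complex III, at 578. Lengths here are the median of a gene's protein-coding transcripts, and with the longest transcript, an alternative chosen after seeing the data, Uqcrc1 came to 186 while Atp5b and Cox8a kept their values.

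Promoter sequence was read for the members from RefSeq (build GRCm38.p6), which held a window of 250 bases before to 50 after the start for 65 of the 79 tested members. The 3 shown are those of Ndufb6 and Ndufa8, which had the lowest p-values in OIR mice, and of Sdhd, which was not lower in OIR mice. At most the 250 bases before the start are printed, 5' to 3' on the strand of the gene. For Ndufa8 the count table puts the start 68 bases further upstream than RefSeq, and the bases inside the gene by that table are left out, so that 182 are printed. For Sdhd it puts the start 37 bases further downstream. Capitals mark a match, on either strand, to the NRF1 core (GCGCATGC), the ETS core bound by GABP (CCGGAAG), the YY1 motif (AAGATGGCG) or the hypoxia response core (ACGTG). The printed stretch of Ndufb6 lies at chr4:40279422-40279671 on the minus strand. That of Ndufa8 lies at chr2:36049407-36049588 on the minus strand and that of Sdhd at chr9:50603850-50604099 on the minus strand.
Ndufb6: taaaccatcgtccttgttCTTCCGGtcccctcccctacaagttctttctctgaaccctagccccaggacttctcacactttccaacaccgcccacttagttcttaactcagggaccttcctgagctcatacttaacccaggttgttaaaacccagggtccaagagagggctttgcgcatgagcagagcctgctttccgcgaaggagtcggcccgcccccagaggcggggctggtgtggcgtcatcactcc
Ndufa8: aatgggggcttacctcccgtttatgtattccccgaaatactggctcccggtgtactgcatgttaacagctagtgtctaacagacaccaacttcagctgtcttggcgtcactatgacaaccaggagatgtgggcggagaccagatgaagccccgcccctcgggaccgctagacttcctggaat
Sdhd: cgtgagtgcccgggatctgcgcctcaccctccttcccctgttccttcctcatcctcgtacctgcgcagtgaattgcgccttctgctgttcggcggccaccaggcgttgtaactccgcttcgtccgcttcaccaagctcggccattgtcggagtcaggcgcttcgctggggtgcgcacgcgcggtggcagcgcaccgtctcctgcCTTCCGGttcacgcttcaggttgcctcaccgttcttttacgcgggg

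The printed stretch of Ndufb6 holds 1 match to the ETS core, far upstream of the start. That of Ndufa8 holds 0 matches, and 1 match to the NRF1 motif lies in the 68 bases left out. That of Sdhd holds 1 match to the ETS core, so this motif stood in a member that was lower and in one that was not. Over the whole window, the NRF1 motif was found in 10 of 65 members (15.4%) against 3.05% of all 27025 genes with a window. The ETS core was found in 16 members (24.6%) against 9.93% of all genes, and the YY1 motif in 7 members (10.8%) against 1.64%. The hypoxia response core was found in 16 members (24.6%) against 21.8%. A match is a run of letters and not a measured binding site. The shares of all genes are over every gene with a window, tested in the counts or not, and were not matched for base content.

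The first comparison asked how the subunits stood in OIR retinas at the peak of neovascularization. Nearly the whole set was lower than in control mice, by a small amount. Of the 79 members tested, 77 had a log2 fold change below 0, with a median of -0.27 (a level -17.3% from control) against 0.03 for all 17540 genes tested. In edgeR, 36 members had an unadjusted p below 0.05 with a lower level, which is 45.6% of them against 12.7% of all genes, and 0 with a higher level against 11.1%. After Benjamini-Hochberg adjustment over all genes, 1 of 79 members was called, Ndufb6, against 165 of 17540 genes in either direction (0.941%). This share is near that of all genes. In 37 members every OIR mouse was below every control mouse (46.8%), against 17.2% of all genes, and in 0 members every OIR mouse was above, against 15.9%.

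The number of calls depended on the model. DESeq2 fitted to the control and OIR mice alone called 17 of 79 members, all lower, against 9.99% of all genes called lower. edgeR fitted to the same 6 mice called 13, against 7.44% of all genes called lower, and edgeR without treated OIR mouse 2, which enters the main fit through the shared spread, called 16, against 8.59%. Without any 1 of the 6 mice compared, or without treated OIR mouse 5, edgeR called 0 members, with 14 to 42 at an unadjusted p below 0.05 and lower. Shares of all genes in these fits are not given, so this range is not set against them. DESeq2 on all 9 mice called 13 of 79 members, against 1212 of 17540 genes called lower (6.91%). By limma-voom 8 of 79 were called, against 1388 of 17540 genes lower (7.91%), a share near that of all genes. Over the fits that lacked a mouse the median ran from -0.34 to -0.21.

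**Figure D1:**
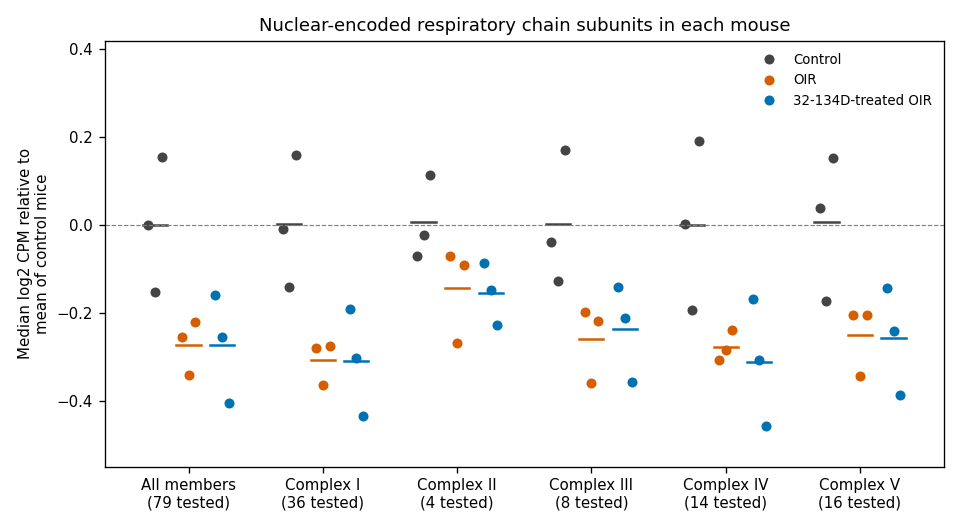
Level of the subunits in each mouse, by complex. The vertical axis is the median over members of log2 CPM relative to the mean of the control mice, each point is 1 mouse and bars are group means. Over all 79 tested members, OIR mice lie between -0.34 and -0.22 and treated OIR mice between -0.40 and -0.16, and control mouse 6 lies at -0.15.

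Single mice showed the shift beside the spread between mice. Taking the median over the 79 members relative to the control mean, control mice 1, 6 and 7 stood at -0.00, -0.15 and 0.15 on the log2 scale. OIR mice 3, 5 and 6 stood at -0.25, -0.34 and -0.22, and treated OIR mice 2, 5 and 10 at -0.16, -0.25 and -0.40. The control mice spread widely and control mouse 6 lay close to treated OIR mouse 2, but every control mouse was above the 6 others. Control mouse 7 had the highest level of 62 members among the 9 mice, and treated OIR mouse 10 the lowest of 40. Without control mouse 6, 62 members did not overlap between OIR and control mice, all lower in OIR mice, against 21.3% of all genes lower in the same mice.

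The share of all counts taken by the members needs no scaling factor. It was 1.21%, 1.08% and 1.22% in control mice, 1.04%, 0.997% and 1.09% in OIR mice, then 1.05%, 1.04% and 0.986% under treatment, with crystallin genes left out of the totals. OIR mouse 6 held slightly more than control mouse 6, so on this measure OIR and control mice overlapped. This sum weights the members by abundance, and Atp5b and Atp5a1, the most abundant transcripts by count, were among those with the smaller log2 fold changes.

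Complex I, the NADH dehydrogenase, had all 36 members below 0 in OIR mice. Its median log2 fold change was -0.28, 19 members (52.8%) had an unadjusted p below 0.05 in edgeR and in 20 the groups did not overlap, against the 12.7% and 17.2% of all genes given above. Ndufb6, an accessory subunit of the membrane arm (ENSMUSG00000071014, chromosome 4, 40270591 to 40279421 in GRCm38), measured 5.49, 5.51 and 5.62 log2 CPM in control mice 1, 6 and 7. OIR mice 3, 5 and 6 had 4.92, 4.85 and 5.04, and treated OIR mice 2, 5 and 10 had 5.003, 4.99 and 4.85. The 3 control mice stood clear of the other 6. Ndufb6 fell by 0.60 ± 0.10 (SE) on the log2 scale in OIR mice (edgeR, adjusted p = 0.0408). Its gene body overlaps Smim27, and the counting strand was not given in the sources used here, so reads of the pair may be shared.

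Ndufa8, an accessory subunit of the intermembrane face, measured 6.38, 6.32 and 6.42 log2 CPM in control mice, 5.93, 5.85 and 6.04 in OIR mice, then 5.99, 6.02 and 5.89 under treatment. The control mice again lay above all others, with a log2 fold change in OIR mice of -0.44 ± 0.08 (SE) that missed the threshold (edgeR, adjusted p = 0.0528). Ndufa11, a membrane subunit, had 6.05, 6.07 and 6.33 in control, 5.63, 5.63 and 5.74 in OIR and 5.98, 5.67 and 5.74 in treated OIR mice. Here treated OIR mouse 2 stood close to the lowest control mouse, while the log2 fold change in OIR mice was -0.49 ± 0.11 (edgeR, adjusted p = 0.0655).

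Ndufa12 had the lowest log2 fold change of complex I, -0.71 ± 0.35 (SE), and also one of the widest spreads. Its values were 5.55, 5.52 and 6.19 log2 CPM in control mice, 5.52, 4.76 and 4.81 in OIR mice, then 4.89, 5.93 and 4.72 under treatment. OIR mouse 3 reached the level of the lower control mice and treated OIR mouse 5 exceeded them (edgeR, adjusted p = 0.253). Ndufa1, a small membrane subunit, was likewise uneven, with 6.48 log2 CPM in treated OIR mouse 2 against 5.40 to 5.72 in the other 5 OIR and treated OIR mice and 5.72 to 6.15 in control mice.

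The 7 core subunits of complex I, which carry the flavin and iron-sulfur clusters or form the quinone site, had a median of -0.16 against -0.32 for the 29 accessory subunits. They divided among themselves. Ndufs7, which holds the last iron-sulfur cluster before ubiquinone, measured 6.95, 6.78 and 6.86 in control, 6.47, 6.40 and 6.48 in OIR and 6.37, 6.53 and 6.32 in treated OIR mice, a log2 fold change of -0.41 ± 0.09 in OIR mice (edgeR, adjusted p = 0.0602). Ndufs8, with the neighboring clusters, gave -0.44 ± 0.10 (edgeR, adjusted p = 0.0637), and Ndufv1, the flavin subunit, -0.22 ± 0.11 (edgeR, adjusted p = 0.262). In Ndufs7 and Ndufs8 control mice were above every other mouse.

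Ndufs1, the largest subunit of the NADH-oxidizing arm, lay nearest to 0 in complex I. It measured 6.64, 6.60 and 6.57 in control, 6.59, 6.51 and 6.58 in OIR and 6.51, 6.60 and 6.66 in treated OIR mice. The groups overlapped, with a log2 fold change of -0.04 ± 0.08 in OIR mice (edgeR, adjusted p = 0.770).

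**Figure D2:**
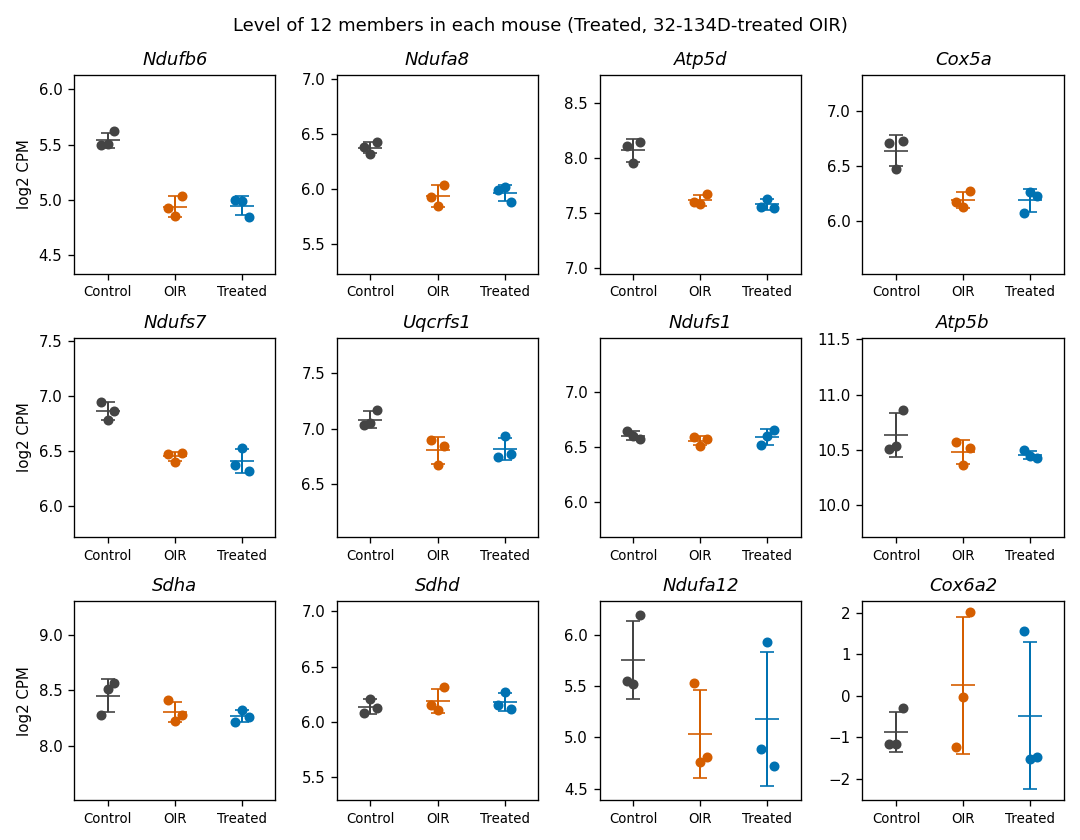
Level of 12 members in each mouse. The vertical axis is log2 CPM on a scale of its own for each gene, points are mice, and bars are the mean ± SD (n = 3). Ndufb6, Ndufa8, Atp5d, Cox5a, Ndufs7 and Uqcrfs1 are higher in every control mouse than in any OIR mouse, while Ndufs1, Sdhd, Ndufa12 and Cox6a2 overlap.

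Complex II, succinate dehydrogenase, stands in both the respiratory chain and the tricarboxylic acid cycle and has no subunit encoded in mitochondrial DNA. It had the median nearest to 0, -0.17, and 0 of its 4 members had an unadjusted p below 0.05 in edgeR or groups without overlap in OIR mice. Sdha, the flavoprotein, measured 8.28, 8.52 and 8.56 log2 CPM in control, 8.41, 8.23 and 8.28 in OIR and 8.21, 8.32 and 8.26 in treated OIR mice. Control mouse 1 sat among the OIR mice, and the log2 fold change was -0.15 ± 0.11 (SE). Sdhd, a membrane anchor, was the only member besides Cox6a2 above 0, with 6.08, 6.21 and 6.13 in control, 6.16, 6.10 and 6.31 in OIR and 6.15, 6.27 and 6.12 in treated OIR mice, a difference of 0.06 ± 0.09 in OIR mice. Sdhb, the iron-sulfur subunit, gave -0.19 ± 0.12, and Sdhc, the other anchor, -0.18 ± 0.11.

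Complex III, the cytochrome bc1 complex, had all 8 members below 0 in OIR mice, with a median of -0.26 and 4 (50%) at an unadjusted p below 0.05 in edgeR. Uqcrb, a small subunit near the quinone site, was lowest at -0.43 ± 0.14 (SE, adjusted p = 0.126 in edgeR). Its control values were 6.53, 6.11 and 6.61 and its OIR values 5.89, 5.87 and 6.22, so that control mouse 6 fell below OIR mouse 6. Uqcrfs1, the Rieske iron-sulfur protein, measured 7.03, 7.05 and 7.17 in control, 6.90, 6.67 and 6.84 in OIR and 6.75, 6.93 and 6.77 in treated OIR mice. Every control mouse was above the others, with a log2 fold change of -0.28 ± 0.10. The large core proteins Uqcrc1 and Uqcrc2 gave -0.14 ± 0.11 and -0.18 ± 0.12, with overlapping groups.

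Complex IV, cytochrome c oxidase, had 13 of 14 tested members below 0 in OIR mice, with a median of -0.32. Cox5a, a matrix-side subunit, measured 6.71, 6.48 and 6.73 log2 CPM in control, 6.18, 6.13 and 6.28 in OIR and 6.07, 6.26 and 6.23 in treated OIR mice. The 3 control mice lay above all others, a log2 fold change of -0.45 ± 0.10 in OIR mice (edgeR, adjusted p = 0.0612). Cox5b, which binds zinc, gave -0.33 ± 0.11 and Cox8a -0.38 ± 0.11, both without overlap between OIR and control mice.

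Complex IV is also where tissue forms of a subunit are found, and the retina used the common ones. Of the Cox6a pair, Cox6a1 held 99.6% of the level per kilobase over the 9 mice, and of the Cox8 forms Cox8a held 98.4%. Cox6b1 held 93.8% of the Cox6b pair and Cox6b2, a testis form, 6.22%. Cox7a1, the heart and muscle form, held 1.28% of its set, against 47.0% for Cox7a2 and 51.7% for Cox7a2l, a related protein. The common forms followed the set in OIR mice, with -0.35 ± 0.14 for Cox6a1, -0.30 ± 0.13 for Cox6b1, -0.27 ± 0.13 for Cox7a2, -0.38 ± 0.14 for Cox7b and -0.17 ± 0.15 for Cox7a2l. The rare forms were too uneven to compare. Cox6a2 had 10, 7 and 11 counts in control, 6, 19 and 88 in OIR and 45, 4 and 5 in treated OIR mice, and its log2 fold change of 1.91 ± 1.12 in OIR mice rests on OIR mouse 6. Cox6b2, Cox7a1 and Cox8b gave -0.47 ± 0.34, -0.12 ± 0.29 and -0.40 ± 0.35.

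Complex V, ATP synthase, had all 16 tested members below 0 in OIR mice, with a median of -0.27. Atp5d, the delta subunit of the central stalk, measured 8.11, 7.95 and 8.14 log2 CPM in control, 7.60, 7.58 and 7.67 in OIR and 7.56, 7.63 and 7.55 in treated OIR mice. Control mice were clear of the others, with a log2 fold change of -0.45 ± 0.09 in OIR mice (edgeR, adjusted p = 0.0562). Its gene body overlaps Cbarp. The alpha and beta subunits of the head moved less. Atp5b measured 10.51, 10.53 and 10.86 in control, 10.57, 10.36 and 10.52 in OIR and 10.50, 10.45 and 10.42 in treated OIR mice, -0.16 ± 0.14 in OIR mice, and Atp5a1 gave -0.12 ± 0.12.

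The 4 peripheral stalk subunits had a median of -0.31 in OIR mice, and all 4 were lower without overlap, against 17.2% of all genes. In treated OIR mice 2 of the 4 were lower than control mice without overlap, against 12.2% of all genes. The membrane ring of c subunits is made from 3 genes for the same mature protein. Atp5g3 held 61.5% of their level per kilobase, Atp5g2 32.0% and Atp5g1 6.43%. The annotated transcripts of Atp5g1 are longer than those of its partners, and by CPM alone, which is not per length, it held 20.7% of the set. In OIR mice Atp5g1 and Atp5g3 gave -0.32 ± 0.13 and -0.31 ± 0.12 with no overlap, while Atp5g2 overlapped at -0.12 ± 0.14. Atp5l, a membrane subunit, had the log2 fold change nearest to 0 in the complex, -0.10 ± 0.13. Atp5s, which is not a subunit, gave -0.41 ± 0.19 in OIR mice and, with the inhibitor, -0.04 ± 0.19.

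**Figure D3:**
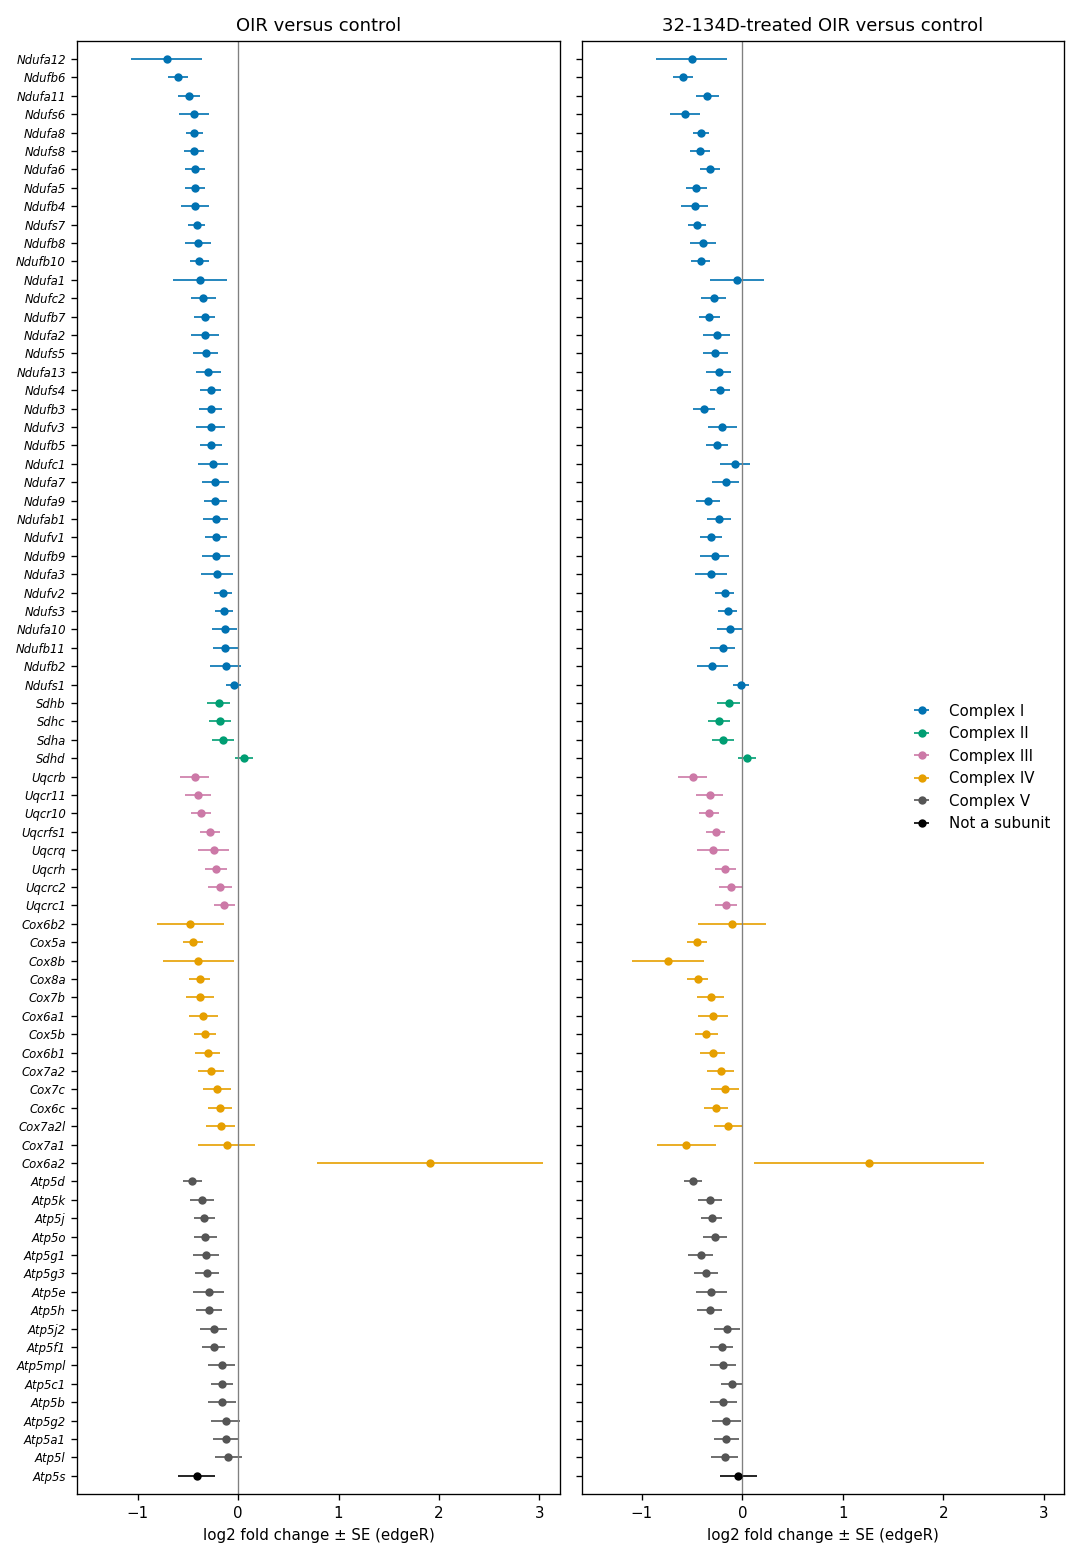
Log2 fold change of the tested members, 78 of 79, against control mice, with the standard error, for OIR mice and for mice given 32-134D. Members are grouped by complex and ordered by their value in OIR mice, and both panels share the same 3 control mice. In each panel Sdhd and Cox6a2 lie above 0 and the other members drawn lie below.

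The second comparison set treated OIR mice against the same control mice. The members were again lower by a small amount, with 77 of 79 below 0 and a median log2 fold change of -0.27 (-17.3%) against 0.01 for all genes. In edgeR 0 members were called after adjustment, against 0.0228% of all genes, and 33 members had an unadjusted p below 0.05 with a lower level (41.8%), against 8.6% of all genes. None of the 79 had an unadjusted p below 0.05 with a higher level, against 10%. In 34 members every treated OIR mouse was below every control mouse (43.0%), against 12.2% of all genes, and in 0 every one was above, against 12.8%. DESeq2 on these 6 mice called 5 members, Ndufb6, Atp5d, Ndufs7, Ndufa8 and Cox8a, all lower, against 1.11% of all genes called lower.

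The lowest p-values in treated OIR mice were those of Ndufb6, Atp5d and Ndufs7. Their log2 fold changes against control were -0.59 ± 0.10, -0.49 ± 0.09 and -0.45 ± 0.09 (SE), each with an adjusted p of 0.102 in edgeR. By complex the medians were -0.29 for complex I, -0.16 for complex II, -0.28 for complex III, -0.29 for complex IV and -0.24 for complex V. Without treated OIR mouse 2, the median of the members was -0.33, and 56 members did not overlap with control mice, against 17.3% of all genes lower in the same mice. edgeR then called 0 members, with 43 at an unadjusted p below 0.05 and lower, against 6.98% of all genes. The lens RNA of this mouse stood beside the highest members' median of the treated OIR mice, and its part in that value was not tested.

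The third comparison, treated OIR against OIR mice, asked what the inhibitor added within the model. The members were spread around 0, with 38 below and 41 above and a median log2 fold change of 0.01 against 0.01 for all genes. By edgeR 0 members were called, against 0.0% of all genes, and 0 had an unadjusted p below 0.05, against 2.3% of all genes lower and 2.39% higher. DESeq2 and limma-voom also called 0 members. Groups did not overlap in 1 member that was lower, Cox7a1, against 5.39% of all genes, and in 2 that were higher, Ndufa6 and Atp5s, against 3.74%. The standard error of a member's log2 difference had a median of 0.12.

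For Ndufb6, Ndufa8, Atp5d and Cox5a the treated and untreated OIR mice differed by less than the standard error. The log2 difference, treated OIR minus OIR, was 0.01 ± 0.10 (SE) for Ndufb6, 0.03 ± 0.08 for Ndufa8, -0.04 ± 0.09 for Atp5d and -0.00 ± 0.10 for Cox5a. The lowest p-values belonged to Atp5s at 0.37 ± 0.19, Cox7a1 at -0.44 ± 0.29 and Ndufa11 at 0.14 ± 0.11, each with an adjusted p of 0.9998 in edgeR. These p-values do not show that the levels were the same.

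Transcript length went with the size of the difference in OIR mice. There the 49 members with a median annotated transcript of up to 800 bases had a median log2 fold change of -0.32, and the 20 members of 800 to 1200 bases -0.21. Other protein-coding genes of those lengths had medians of -0.02 and -0.05, and those over 3000 bases 0.10. Across the 79 members, which share their 9 libraries, Spearman's coefficient between length and log2 fold change was 0.31, and 0.34 with the longest transcript. In treated OIR mice the same bins gave -0.29 and -0.21 for members, and the coefficient was 0.21 and 0.29. The 7 members of 1200 to 2000 bases gave -0.24 under treatment and the 3 of 2000 to 3000 bases -0.30, as low as the shortest ones. In OIR mice these bins gave -0.22 and -0.12. Short transcripts were thus lower than long ones in the libraries at large, by less than the members, and the part of length in the members' values was not tested.

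**Figure D4:**
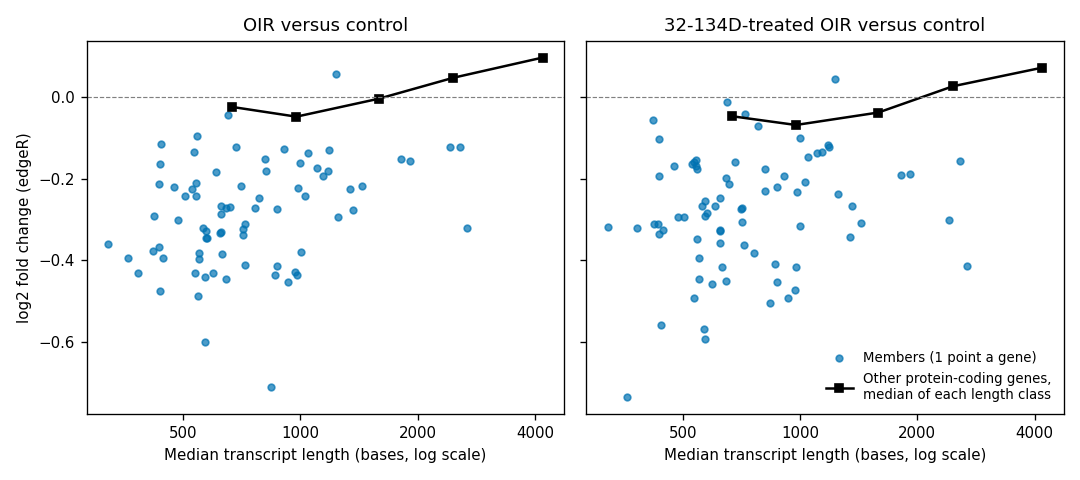
Log2 fold change against median transcript length of each member, in OIR and treated OIR mice against control mice, with the horizontal axis on a log scale. Black squares join the medians of other protein-coding genes in length classes, and Cox6a2 and 1 other member are not drawn. Members lie mostly below the line of other genes of the same length, whose medians run from -0.05 to 0.10 in OIR mice.

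The partners of these subunits were read from lists of related genes. The 12 tested subunits encoded in mitochondrial DNA were lower by more than the nuclear set, with a median log2 fold change of -0.74 under OIR and of -0.83 with the inhibitor. In OIR mice 2 of 12 were called, mt-Co2 and mt-Nd2 (edgeR, adjusted p = 0.0407 and 0.0442), against 0.941% of all genes in either direction. By an unadjusted p below 0.05 in edgeR, 11 of 12 were lower, against the 12.7% of all genes. In treated OIR mice 0 were called, against 0.0228% of all genes, and 10 were lower at that unadjusted p, against 8.6%. Between treated OIR and OIR mice their median was -0.05. Levels of nuclear and mitochondrial transcripts were thus both lower in the 2 OIR groups, by unequal amounts.

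Of the chain genes outside the set, Cox4i1, the common form of subunit 4, gave -0.28 ± 0.12 in OIR mice, and Ndufa4, now placed in complex IV, -0.32 ± 0.15. Cycs, the electron carrier cytochrome c, gave -0.48 ± 0.10 (edgeR, adjusted p = 0.0562). Ndufa4l2 went the other way. It had 528, 293 and 352 counts in control, 1612, 1600 and 1837 in OIR and 3682, 1708 and 1636 in treated OIR mice, and rose by 2.13 ± 0.35 on the log2 scale in OIR mice (edgeR, adjusted p = 0.0408). Cox4i2 was 0.24 ± 0.22 with overlapping groups.

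As lists, genes that build or regulate the chain had smaller median changes than the members, though some single genes in them moved more. Of 77 tested mitochondrial ribosomal proteins, 62 were below 0 in OIR mice with a median of -0.17, 0 called and 18 (23.4%) lower at an unadjusted p below 0.05 in edgeR. All genes stood at 12.7% lower and 11.1% higher by that p. The 47 tested assembly factors had a median of -0.18, with 0 called, 7 (14.9%) lower and 2 higher. The 14 genes of the tricarboxylic acid cycle had -0.12, with 0 called and 2 (14.3%) lower, both shares by that p near that of all genes. The 82 tested cytosolic ribosomal proteins, also short and abundant transcripts, had a median of -0.07, with 0 called, 1 lower and 1 higher. Below 0 were 33 of 47 assembly factors, 12 of 14 cycle genes and 64 of 82 cytosolic ribosomal proteins, against 8158 of 17540 genes. Of the 4 lists in turn, 22 (28.6%), 13 (27.7%), 5 (35.7%) and 5 (6.10%) genes had every OIR mouse below every control mouse. Of all genes 17.2% did, and the reverse held in 0, 2, 1 and 3 genes of the lists, against 15.9%. In treated OIR mice the 4 medians were -0.15, -0.15, -0.17 and 0.04, the last -0.14 without treated OIR mouse 2. Regulators of mitochondrial biogenesis had a median of 0.07 in OIR mice, with 0 of 17 called, 1 lower and 4 higher at an unadjusted p below 0.05. Their single values went both ways, from -0.55 to 0.45. Esrra, a nuclear receptor that activates many subunit genes, was the lower one at -0.55 ± 0.11 (edgeR, adjusted p = 0.0548). Gabpa, the DNA-binding part of GABP, gave 0.44 ± 0.12 (adjusted p = 0.0867 in edgeR), Nrf1 0.06 ± 0.11 and Ppargc1a -0.18 ± 0.20.

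**Figure D5:**
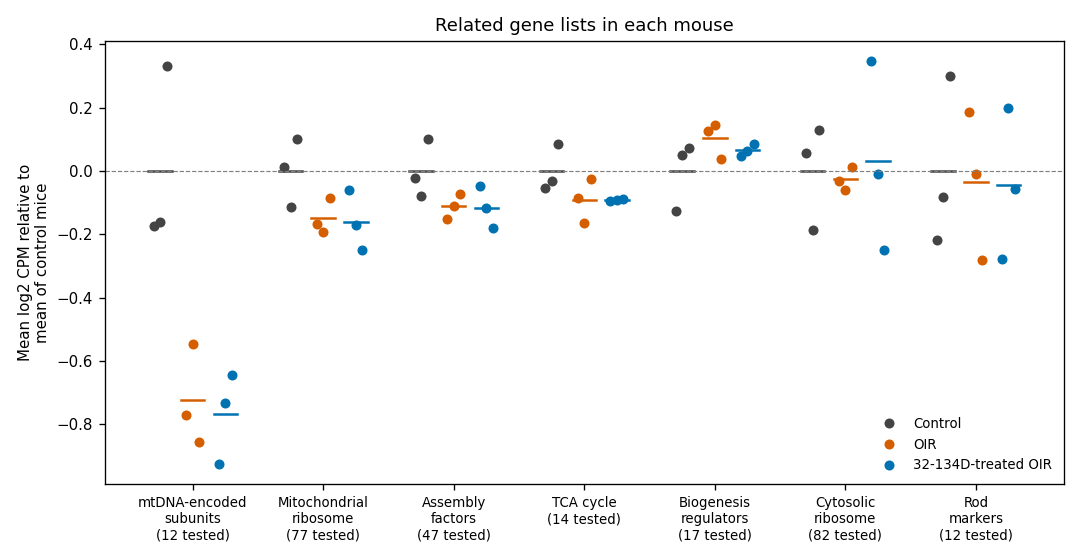
Related gene lists in each mouse. The vertical axis is the mean over genes of log2 CPM relative to the mean of the control mice, points are mice and bars are group means. The subunits encoded in mitochondrial DNA lie between -0.93 and -0.55 in the 6 OIR and treated OIR mice and at -0.17, -0.16 and 0.33 in control mice, and rod markers overlap between groups.

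Cell type markers were set beside the subunits. The 12 rod markers had a median log2 fold change of -0.10 in OIR mice, with 7 of 12 below 0, and of -0.09 with the inhibitor, or 0.02 without treated OIR mouse 2. Their summed levels ran from 51645 to 79469 CPM in control mice, from 43193 to 67060 in OIR mice and from 49151 to 66959 under treatment, and control mouse 7 was highest for these as for the subunits. The 8 cone markers had medians of -0.07 and -0.20, the latter -0.03 without that mouse. The 18 markers of inner retinal neurons had medians of -1.29 and -0.70, the latter -0.38 without that mouse, with summed levels of 2484 to 3271, 1449 to 1959 and 1171 to 2315 CPM. They did not move as one, since 12 were below 0 and 6 above in OIR mice, and 15 below and 3 above under treatment. The 9 Müller glia markers gave 0.37 in OIR mice, with 6 above 0 and 3 below. There 1 was called higher, against 0.941% of all genes in either direction, and 1 was lower at an unadjusted p below 0.05 in edgeR. In treated OIR mice they gave -0.43, with 7 below 0 and 2 above, or -0.14 without treated OIR mouse 2. The other lists gave medians, in OIR and then treated OIR mice, of 0.05 and 0.89 for 7 endothelial markers, 0.34 and -0.998 for 8 microglial, -0.60 and 0.07 for 7 pigment epithelial, -1.55 and 0.01 for 5 erythroid, -0.61 and -0.20 for 5 tested of 12 skeletal muscle, and 1.52 and 7.69 for 18 lens markers. Without treated OIR mouse 2 the treated medians of these lists were 1.15, -1.13, 0.49, -0.15, -0.14 and, for the lens, 0.72. The lens value thus rests on that mouse, whose summed lens level was 179104 CPM against 1078 and 17.5 in treated OIR mice 5 and 10. The part of cell composition in the members' lower levels was not tested.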

How the data were processed

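Retinal RNA from 9 mice was sequenced in bulk. The values deposited by the authors are raw read counts, made with CASAVA and HISAT per the submitters' processing notes. The counting tool, its strand setting and the annotation release are not given in the sources used here. Gene positions in the table match GENCODE M21 (GRCm38) for 98.3% of shared identifiers and for 76 of the 82 members, and no pair of columns was identical.

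Counts as deposited were fitted with edgeR 4.0.16 (quasi-likelihood, TMM scaling, all 9 mice in one fit, genes kept by filterByExpr), and p-values were adjusted by Benjamini-Hochberg over 17540 genes. A gene was called at an adjusted p below 0.05. The standard error is the log2 fold change over the square root of its F statistic. Log2 CPM used a prior count of 2. Levels per kilobase used the median length of the protein-coding transcripts of a gene in GENCODE M21, which overstates the level of genes with many short annotated transcripts, such as Ndufs1 and Uqcrc1, and lowers that of genes with long ones, such as Atp5g1. DESeq2 and limma-voom were alternatives, with other scalings, filters and left-out mice. The fits were tested on simulated data with 200 changed genes.

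Counts over the members stand beside the share of all genes tested. The members, the lists and the tests were chosen with earlier results of these data known. The text names members that were called, the highest and lowest of each complex in OIR mice, the 3 of lowest p in each comparison, core subunits, tissue forms and rows that are not subunits. Other members named, such as Ndufa1, Ndufa6 and Cox7b, were chosen after their values were seen or belong to those sets. In 35 of the 79 tested members the gene body overlaps another annotated gene, and 12 pseudogene rows carry a member's name, the highest at 299 counts. Values of 1 member are not reported here.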

Additional observations from a re-analysis of the deposited data

How the results depend on the processing

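Direction was steadier than the number of calls. In OIR against control mice the main fit called 1 member. The count was 13 by DESeq2 on all 9 mice, 17 by DESeq2 and 13 by edgeR on the groups compared, 8 by limma-voom, 5 with 10 counts required in every mouse, 2 with upper-quartile scaling, and 0 with total counts alone or with an added limit of 1 on the absolute log2 fold change. Leaving out each mouse gave 0 to 16. In treated OIR against control mice, where the main fit called 0, the count was 11 by DESeq2 on all 9 mice, 5 by DESeq2 on the groups compared and 7 by limma-voom, and 0 in each leave-one-out fit. The cause of these differences was not tested. Shares of all genes are given above for some of these fits only. The counts here therefore show how calls varied between fits, and not an excess in the members. Ndufb6 was called in 11 of the 19 other fits of OIR against control mice and missed the threshold in the other 8, with total counts alone and without 7 of the 9 mice, at an adjusted p of up to 0.170.

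The median of the members in OIR mice was -0.34 to -0.21 over all alternatives, and in treated OIR against control mice -0.36 to -0.18. It was -0.32 and -0.31 without the members that overlap another gene. Against OIR mice the treated OIR median ran from -0.10, with total counts alone, where the median of all genes was -0.09, to 0.05. In OIR mice 74 of 79 members were below 0 in every alternative, and 70 in treated OIR against control mice. Members without overlap numbered 38 to 62 in OIR against control mice when 1 mouse was left out, 35 to 56 in treated OIR against control mice and 4 to 13 in treated OIR against OIR mice, where fewer mice make non-overlap easier. The other scalings left these counts within 1.5 times of the main ones. Without control mouse 6, the 62 members stood against 21.3% of all genes lower in OIR mice. Without treated OIR mouse 2, the 56 stood against 17.3% lower in treated OIR mice. Shares for the other left-out mice are not given, so the ranges are not set against all genes.

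No paired analysis was possible because the groups share fewer than 2 replicate numbers. With 3 mice in a group, an exact two-sided permutation test of a single gene cannot go below 0.1. Rare tissue forms such as Cox6a2 are limited by their counts. Levels by the longest transcript and marker lists without treated OIR mouse 2 were added after the data were seen.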
